A study of Mus musculus with 10 samples.

Results

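The 10 genes of the stress granule core were followed through the lumbar spinal cord of mice that carry human TARDBP. They were chosen by name, as the genes G3bp1, G3bp2, Tia1, Tial1, Caprin1, Ubap2l, Fmr1, Fxr1, Fxr2 and Pabpc1. No measured value is part of the rule, but the choice was made with earlier results of these data known. They are 10 of the 22024 gene identifiers of the count table, and 10 of 10 passed the filter on low counts, as did 15191 genes in all. With edgeR, Tial1 and Fmr1 were higher in M337V than in nontransgenic cord, by 1.25-fold and 1.18-fold. It called 4.29% of all tested genes there, and none of the other 8 genes in any comparison. Neither call held once trends with GC content and exon length were taken out, and DESeq2 and limma-voom called Tia1 and Ubap2l as well. In cord with the normal human gene the 2 genes were at 1.18-fold and 1.17-fold of nontransgenic cord and were not called by edgeR. Between the mutant and the normal human gene edgeR called 0 of 15191 genes.

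PolyA RNA of 10 female mice aged 3 months was sequenced, with 1 library from each animal. M337V mice (n = 5, animals 1, 2, 3, 7 and 9) carried human TARDBP with the M337V mutation, which is linked to amyotrophic lateral sclerosis (ALS), on a bacterial artificial chromosome at the Rosa26 (Gt(ROSA26)Sor) locus. WT mice (n = 2, animals 8 and 10) carried the same human gene without the mutation at the same locus. Mice labelled nontransgenic C57BL/6 (NTg, n = 3, animals 4, 5 and 6) carried neither by that label. The human TARDBP counts of animal 4, given below, went against it. The transgenic lines were crossed to C57BL/6J for at least 3 generations, and whether the sampled animals were homozygous or heterozygous is not stated. All 3 groups keep the mouse Tardbp gene, which had 4402 to 5350 counts in a library, so that the human transcript was measured beside the mouse one. The study's title places stress granule dynamics at its centre, and the comparisons below ask whether the transcripts of the granule's core proteins differed with the mutant or the normal human gene.

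Stress granules are assemblies of stalled messenger RNA and proteins that form in the cytoplasm when the initiation of translation is blocked, most often after phosphorylation of the initiation factor eIF2alpha. The paralogues G3BP1 and G3BP2 bind RNA and one another and drive assembly, CAPRIN1 and UBAP2L bind G3BP, and TIA1 and TIAL1 condense through their prion-like ends. TDP-43, the product of TARDBP, binds UG-rich RNA, can enter stress granules, and forms cytoplasmic inclusions in the motor neurons of most patients with ALS. Granule formation is an event of proteins and RNA inside a cell, and the values here are RNA levels of whole tissue.

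The libraries held 18724888 to 21041474 counts, and the members had between 1483 and 10103 counts each in a library. Human TARDBP had 2192 to 2723 counts in the 7 libraries labelled transgenic. It had 2415 counts in the library labelled NTg 4, against 1 count in NTg 5 and 4 counts in NTg 6, so the content of NTg 4 went against its label, and log2 differences of the members from NTg are given with it and, where stated, without it. Levels are given as CPM, the counts of a gene scaled to the size of its library. Oligodendrocyte markers summed to 31600 to 39000 CPM in M337V, 34400 to 38300 CPM in WT and 23500 to 28000 CPM in NTg. Against NTg, edgeR called 7 of 10 higher in M337V and 7 of 10 higher in WT. Their log2 differences ran from 0.16 to 0.66 in M337V and from 0.25 to 0.8 in WT. Over all genes the shares called were 4.29% in M337V and 5.64% in WT. Microglia markers summed to 406 to 432, 407 to 433 and 321 to 383 CPM in M337V, WT and NTg. Against NTg, edgeR called 2 of 8 higher in M337V and 1 of 8 higher in WT, with log2 differences of 0.15 to 0.6 and 0.09 to 0.55. Neuron markers summed to 8260 to 9790, 8980 to 10000 and 8200 to 9170 CPM with 0 of 10 called in M337V or WT against NTg, and motor neuron markers (204 to 368, 327 to 351 and 233 to 270 CPM) with 0 of 6 called, so the markers of cord were present. The markers of tissue around the cord varied more. Schwann cell markers stood at 306 to 1720, 198 to 394 and 552 to 2370 CPM. Neutrophil markers stood at 49.4 to 131, 26.7 to 92.7 and 147 to 493 CPM, and skeletal muscle markers at 23.5 to 156, 15.9 to 526 and 136 to 938 CPM. Posterior Hox genes, which are not markers of surrounding tissue, also varied, at 38.8 to 166, 12.6 to 219 and 174 to 224 CPM. Against NTg, edgeR called 4 of 7 neutrophil markers lower in both transgenic groups and 2 of 8 muscle markers lower in M337V. The log2 differences of neutrophil markers ran from -2.01 to -1.56 in M337V and from -2.5 to -1.97 in WT. Those of muscle markers ran from -3.75 to -2.14 in M337V and from -1.5 to -0.51 in WT. None of the Schwann cell, astrocyte, endothelial, meningeal or Hox genes was called by edgeR. No marker on these lists was at 0 in all libraries. In bulk tissue, fewer cells of a type and less RNA per cell cannot be told apart. The part of these cell types in the differences of the 10 genes was not tested.

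All 10 genes were well expressed in the cord. Per kilobase of the principal annotated transcript, and as a mean over the 10 libraries with its SD, G3bp2 stood highest at 150 ± 9.23 CPM per kb. It was followed by Pabpc1 at 57.5 ± 4.21, Caprin1 at 49.3 ± 3.31, Fxr1 at 48.8 ± 3.63 and Fxr2 at 47.1 ± 1.15 CPM per kb. Caprin1, Fxr1 and Fxr2 lay within 1 SD of one another. Tial1 (34.2 ± 3.92), Tia1 (30.1 ± 3.75), Ubap2l (26.3 ± 1.85) and Fmr1 (21.9 ± 1.98 CPM per kb) came next, and G3bp1 was the lowest at 12.5 ± 0.62 CPM per kb. Tial1 and Tia1 overlapped within their SDs, as did Tia1 and Ubap2l. Set among all tested genes, G3bp2 stood at the 97.8th percentile and G3bp1 at the 62.2nd, so both G3BP paralogues formed the ends of the order. The order below G3bp2 depends on the length used, since with the length of all annotated exons Ubap2l came last and G3bp1 seventh. The levels summed over the 10 genes were 1710 to 1850 CPM in M337V, 1730 to 1790 CPM in WT and 1610 to 1670 CPM in NTg, with no overlap between either transgenic group and NTg. Single genes did not overlap with NTg for 18.1% of all genes in M337V and 41.7% in WT. G3bp2 and Caprin1, at means of 453.6 and 303.9 CPM, weigh most in the sum. The means of G3bp1 and Ubap2l were lower than in NTg in both transgenic groups, and that of Fxr2 was lower in M337V.

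**Figure D1:**
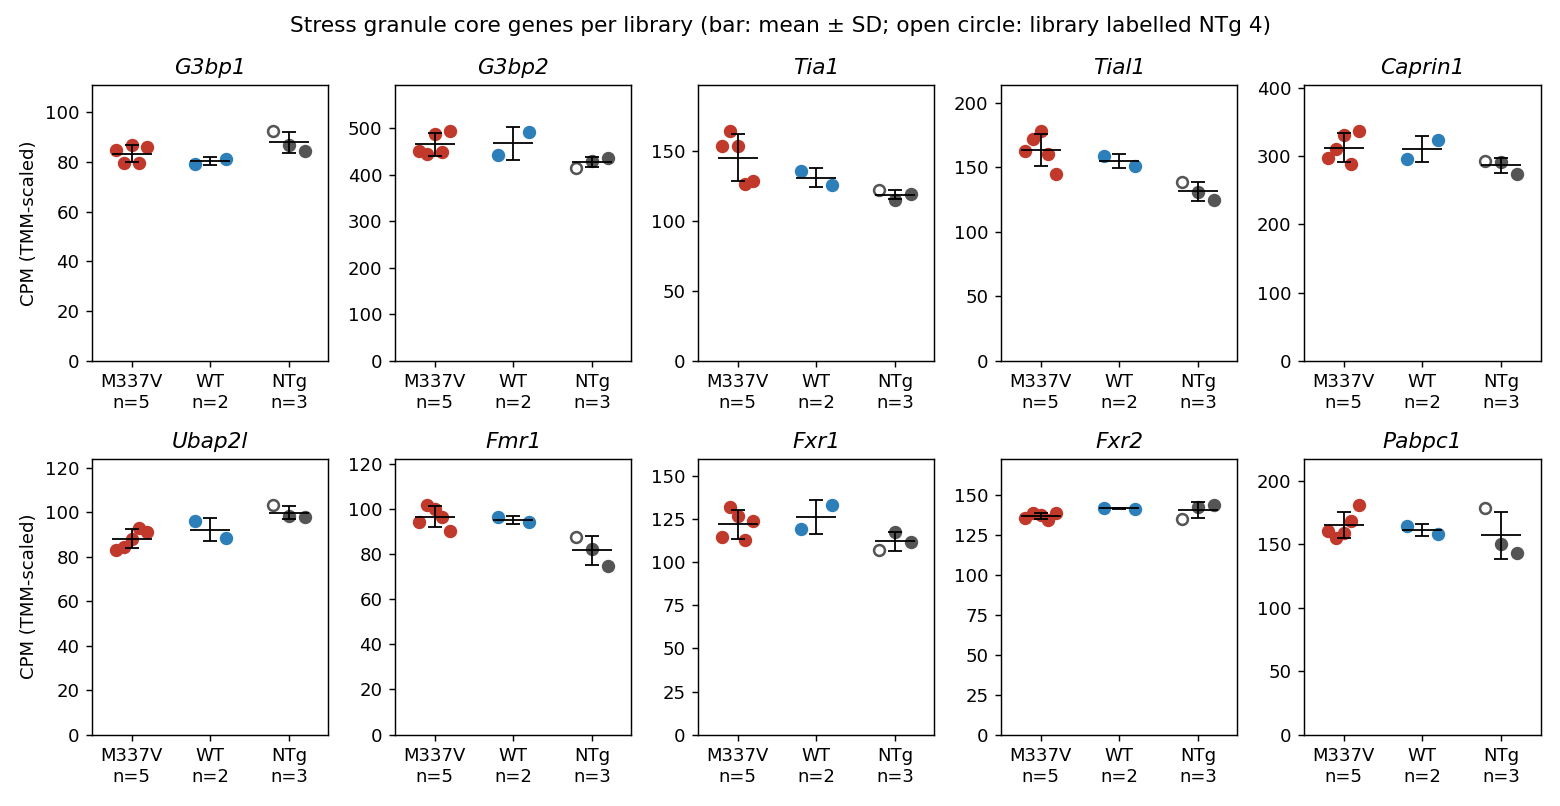
Level of each stress granule core gene in every library, in CPM on linear axes that start at 0, with M337V (n = 5), WT (n = 2) and NTg (n = 3) from left to right; points are single animals and bars are the group mean ± SD, and the open circle is the library labelled NTg 4. Tial1 lay between 145.1 and 178.3 CPM in M337V and between 124.6 and 139.0 CPM in NTg, whereas Fxr2 lay within a narrow range in all groups.

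TDP-43 binds UG repeats, and in human cells it is known to bind the 3′ untranslated region (3′ UTR) of G3BP1 messenger RNA, so the longest UG repeat of that region was read from the principal GENCODE transcript (GRCm38) of each member whose values are discussed most. The windows below run 5′ to 3′ on the transcript strand, with T for U, and capitals mark the repeat. They are G3bp1 (chr11:55501019-55501048, plus strand), Tial1 (chr7:128441151-128441180, minus strand), Fmr1 (chrX:68716151-68716180, plus strand), Tia1 (chr6:86432814-86432843, plus strand) and Ubap2l (chr3:90006520-90006549, minus strand), all in the 3′ UTR.
G3bp1: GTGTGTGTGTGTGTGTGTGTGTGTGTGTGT
Tial1: tttctttgggaGTGTGTGggtgacagatgt
Fmr1: ggaccctgaaaTGTGTGTGatgtgacattt
Tia1: gcagtgattatTGTGTGTGagatttttccc
Ubap2l: gctgtgtttTGTGTGTGTGTataaatttgc
The G3bp1 window is the first stretch of a repeat of 54 bases in a 3′ UTR of 5170 bases, whereas the repeats of the other 4 genes were 7 to 11 bases long. The letters TGTGTG occurred in the 3′ UTR of 6 of the 10 members and in 51.2% of 14852 genes, and 6 TG units in a row in 1 member, G3bp1, and in 6.5% of genes. In the first 1000 bases of the 3′ UTR, for genes with at least that length, TGTGTG was found in 2 of 6 members and in 49.8% of 7577 genes. The transcript strand alone was searched, and matches may overlap. A match is a description of sequence and no measurement of binding.

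The test was edgeR's quasi-likelihood test over all 15191 genes, with Benjamini-Hochberg adjustment over all of them and a threshold of 0.05 on the adjusted p. Between M337V and NTg it called 4.29% of all genes (2.67% higher and 1.61% lower), and it called 2 of the 10 members, both higher. Without the library labelled NTg 4 it called 197 genes, in place of 651, and 2 members. The median log2 difference of the members was 0.12, against -0.01 over all tested genes, and 7 of 10 members had a positive value. At an unadjusted p below 0.05 there were 5 of 10 members, against 24.5% of all genes. The groups did not overlap for 5 members, 4 of them higher and 1 lower in M337V, against 18.1% of all genes (9.51% higher and 8.61% lower). The p-values set each difference against a spread between animals that was estimated over all 3 groups together. Both transgenic groups are compared with the same 3 NTg libraries.

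Tial1 and Tia1 encode RNA-binding proteins that recognise U-rich and AU-rich sequence, repress translation and regulate splicing. Tial1 (ENSMUSG00000030846, GRCm38 chr7:128439777-128461717, minus strand) stood at 162.7, 171.8, 178.3, 160.5 and 145.1 CPM in M337V 1, 2, 3, 7 and 9, at 158.6 and 151.2 CPM in WT 8 and 10, and at 139.0, 130.8 and 124.6 CPM in NTg 4, 5 and 6. Every M337V and every WT library lay above every NTg library, and NTg 4 was the highest of the NTg libraries. Tial1 averaged 163.7 ± 12.6 CPM in the 5 M337V animals and 131.5 ± 7.24 CPM in the 3 NTg animals (SD), a log2 difference of 0.32 ± 0.07 (SE, 95% interval 0.17 to 0.46; edgeR adjusted p = 0.0290). The edgeR call ended once trends with GC content and exon length were taken out, as described below, where the difference was 0.19 (adjusted p = 0.117). Without the library labelled NTg 4 the log2 difference was 0.36 (edgeR adjusted p = 0.0465). The call ended without NTg 5 (log2 0.31, edgeR adjusted p = 0.0696), NTg 6 (0.28, 0.174), M337V 2 (0.30, 0.0723) or M337V 3 (0.29, 0.0514), and without M337V 1, 2 and 3 together the difference was 0.23 (0.259).

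Tia1 (ENSMUSG00000071337, chr6:86404219-86433405, plus strand) stood at 153.3, 164.4, 153.5, 126.8 and 128.8 CPM in M337V 1, 2, 3, 7 and 9, at 135.7 and 126.0 CPM in WT 8 and 10, and at 121.9, 115.3 and 119.4 CPM in NTg 4, 5 and 6. The M337V libraries fell into a high set of animals 1, 2 and 3 and a lower set of animals 7 and 9, and the lower set was within the range of WT. The log2 difference between M337V and NTg was 0.29 ± 0.08 (SE, 95% interval 0.11 to 0.47), which did not pass the threshold (edgeR adjusted p = 0.0656). It passed with DESeq2 (adjusted p = 0.0109), with limma-voom (adjusted p = 0.0413) and without M337V 7 (log2 0.34, edgeR adjusted p = 0.0358) or M337V 9 (0.34, 0.0448). It was 0.31 without the library labelled NTg 4 (edgeR adjusted p = 0.123). Without M337V 7 and 9 together it was 0.41 (edgeR adjusted p = 0.0111), and without M337V 1, 2 and 3 together it was 0.11. By their library names, TDP_10, TDP_11 and TDP_12, these 3 animals stand apart from animals 7 to 10, TDP_5 to TDP_8. The NTg libraries are TDP_2, TDP_3 and TDP_4, with no library labelled transgenic among them. In comparisons with NTg, genotype and whatever goes with these numbers therefore cannot be told apart. The labels do not say what the numbers mean. Over these sets of M337V animals Tia1 averaged 157.1 and 127.8 CPM and Tial1 170.9 and 152.8 CPM, differences of 0.30 and 0.16 on the log2 scale that were not tested.

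Fmr1 encodes FMRP, a polysome-associated repressor of translation whose loss in humans causes fragile X syndrome, and Fxr1 and Fxr2 encode its paralogues. Fmr1 (ENSMUSG00000000838, chrX:68678541-68717963, plus strand) stood at 94.09, 101.8, 100.1, 96.24 and 90.35 CPM in M337V 1, 2, 3, 7 and 9, at 96.22 and 93.92 CPM in WT 8 and 10, and at 87.7, 82.37 and 74.68 CPM in NTg 4, 5 and 6. Again every library labelled transgenic lay above every library labelled NTg, with a narrow gap between M337V 9 and NTg 4, which held human TARDBP. The average was 96.5 ± 4.61 CPM over the 5 M337V animals and 81.6 ± 6.54 CPM over the 3 NTg animals (SD), and the log2 difference was 0.24 ± 0.06 (SE, 95% interval 0.11 to 0.37; edgeR adjusted p = 0.0453). It was 0.30 without the library labelled NTg 4 (edgeR adjusted p = 0.0492) and 0.05 after removal of the trends (0.643). Fmr1 no longer passed without NTg 5 (log2 0.25, edgeR adjusted p = 0.0908), NTg 6 (0.18, 0.213), M337V 1 (0.26, 0.0571), M337V 2 (0.22, 0.103), M337V 3 (0.24, 0.0807) or M337V 7 (0.25, 0.0528), and the difference was 0.20 without M337V 1, 2 and 3 together (0.317).

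Fxr1 (ENSMUSG00000027680, chr3:34019943-34070322, plus strand) stood at 114.6, 132.3, 126.8, 112.7 and 124.1 CPM in M337V, at 119.2 and 133.5 CPM in WT and at 106.9, 117.9 and 112.1 CPM in NTg, in order of animal number. M337V and NTg overlapped, and the log2 difference was 0.12 ± 0.06 (SE, 95% interval -0.02 to 0.26; edgeR adjusted p = 0.275), or 0.09 without NTg 4 (0.53). Fxr2 (ENSMUSG00000018765, chr11:69632990-69653297, plus strand) varied least of the 10 genes, at 135.6, 138.6, 137.6, 134.3 and 138.8 CPM in M337V, 141.8 and 141.4 CPM in WT and 134.8, 142.7 and 143.9 CPM in NTg. Its SD was 2.45% of its mean over the 10 libraries, against 12.5% for Tia1, the most variable member. The log2 difference of Fxr2 between M337V and NTg was -0.04 ± 0.04 (SE, 95% interval -0.12 to 0.05; edgeR adjusted p = 0.618), or -0.06 without NTg 4 (0.51).

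Since Tial1 and Fmr1 were the called genes, their promoters are shown, as the 250 bases upstream of the transcription start in RefSeq (GRCm38.p6), 5′ to 3′ on the strand of the gene. Tial1 is at chr7:128461674-128461923 (minus strand) and Fmr1 at chrX:68678291-68678540 (plus strand), and capitals mark the motifs named after them.
Tial1: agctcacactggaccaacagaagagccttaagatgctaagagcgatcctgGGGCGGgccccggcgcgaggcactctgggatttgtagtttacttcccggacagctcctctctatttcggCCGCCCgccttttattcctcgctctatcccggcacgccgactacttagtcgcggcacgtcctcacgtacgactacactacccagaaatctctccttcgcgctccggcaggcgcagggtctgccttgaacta
Fmr1: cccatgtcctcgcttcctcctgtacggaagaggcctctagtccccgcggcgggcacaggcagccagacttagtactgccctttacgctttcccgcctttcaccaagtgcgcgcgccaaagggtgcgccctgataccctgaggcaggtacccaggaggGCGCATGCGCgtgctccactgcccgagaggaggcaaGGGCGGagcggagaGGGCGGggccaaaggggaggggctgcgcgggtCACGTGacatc
Both promoters held the GC box GGGCGG (on either strand, 2 matches in each), which was found in 32.74% of 32851 promoters and in 8 of the 9 members with an entry. The Fmr1 promoter also held 2 matches to GCGCATGC, a core of the NRF1 motif, which overlap on opposite strands (2.26% of promoters hold it), and 1 to the E-box CACGTG (6.02%), neither of which was in the Tial1 window. The cyclic AMP response element TGACGTCA (1.55%), CCAAT (33.85%) and TATAAA (12.37%) were searched on both strands too and were in neither window. Pabpc1 had no entry.

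Among the genes of the G3BP network, Ubap2l and G3bp1 had a lower mean in M337V than in NTg, and G3bp2 and Caprin1 a higher one. Ubap2l (ENSMUSG00000042520, chr3:90000140-90052628, minus strand) encodes a ubiquitin-associated protein that binds G3BP and is needed for granule assembly in human cells. It stood at 83.19, 84.45, 88.15, 93.09 and 91.23 CPM in M337V 1, 2, 3, 7 and 9, at 95.96 and 88.42 CPM in WT 8 and 10, and at 103.4, 98.38 and 97.78 CPM in NTg 4, 5 and 6. All 7 libraries labelled transgenic lay below all 3 libraries labelled NTg. M337V 7 and 9 were again closer to the WT mean than M337V 1 to 3 were. The log2 difference between M337V and NTg was -0.18 ± 0.05 (SE, 95% interval -0.30 to -0.07; edgeR adjusted p = 0.0670). DESeq2 (adjusted p = 0.0343) and limma-voom (adjusted p = 0.0456) called it. The log2 difference was -0.15 without the library labelled NTg 4 (edgeR adjusted p = 0.208). Without M337V 7 and 9 together it was -0.22 (edgeR adjusted p = 0.0429), and without M337V 1, 2 and 3 together it was -0.11.

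G3bp1 (ENSMUSG00000018583, chr11:55469685-55504838, plus strand) stood at 84.77, 79.57, 86.59, 79.6 and 85.98 CPM in M337V, at 79.27 and 81.3 CPM in WT and at 92.4, 86.65 and 84.37 CPM in NTg, in order of animal number. Both transgenic groups leaned low, WT without overlap and M337V with overlap with NTg (log2 -0.08 ± 0.05, SE, 95% interval -0.19 to 0.03; edgeR adjusted p = 0.387). NTg 4 was the highest NTg library here, and without it the log2 difference from NTg was -0.03 for M337V (edgeR adjusted p = 0.807) and -0.08 for WT (0.516). G3bp1 is the member with the long UG repeat shown above. G3bp2 (ENSMUSG00000029405, chr5:92052146-92083719, minus strand) stood at 450.9, 443.4, 487.6, 448.1 and 493.7 CPM in M337V, at 441.9 and 492.2 CPM in WT and at 414.4, 428.4 and 435.6 CPM in NTg. Every library labelled transgenic lay above every library labelled NTg. The log2 difference of G3bp2 between M337V and NTg was 0.13 ± 0.05 (SE, 95% interval 0.01 to 0.24, edgeR adjusted p = 0.184), or 0.11 without NTg 4 (0.381). Caprin1 (ENSMUSG00000027184, chr2:103762941-103797649, minus strand), which encodes an RNA-binding partner of G3BP, stood at 296.6, 309.8, 330.8, 287.9 and 336.7 CPM in M337V, at 296.2 and 323.0 CPM in WT and at 292.9, 291.8 and 273.7 CPM in NTg. M337V 7 lay within the NTg range, and the log2 difference was 0.13 ± 0.06 (SE, 95% interval -0.01 to 0.26; edgeR adjusted p = 0.223), or 0.15 without NTg 4 (0.284).

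Pabpc1 (ENSMUSG00000022283, chr15:36595661-36609668, minus strand) encodes the main cytoplasmic poly(A)-binding protein, which enters granules with the polyadenylated RNA it coats. It stood at 160.7, 155.3, 159.3, 168.6 and 181.3 CPM in M337V, at 164.8 and 158.2 CPM in WT and at 178.4, 149.9 and 143.2 CPM in NTg. The library labelled NTg 4 lay above every library labelled transgenic except M337V 9, while NTg 5 and 6 were below all of those. The log2 difference was 0.07 ± 0.07 (SE, 95% interval -0.09 to 0.23; edgeR adjusted p = 0.595), with 0.18 without NTg 4 (edgeR adjusted p = 0.172) and 0.01 without NTg 6. Near-identical copies can share reads with Pabpc1, and among its relatives by symbol Pabpc6 had 0 to 2 counts in a library, Pabpc1l 3 to 20 and Pabpc4 550 to 766 counts.

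**Figure D2:**
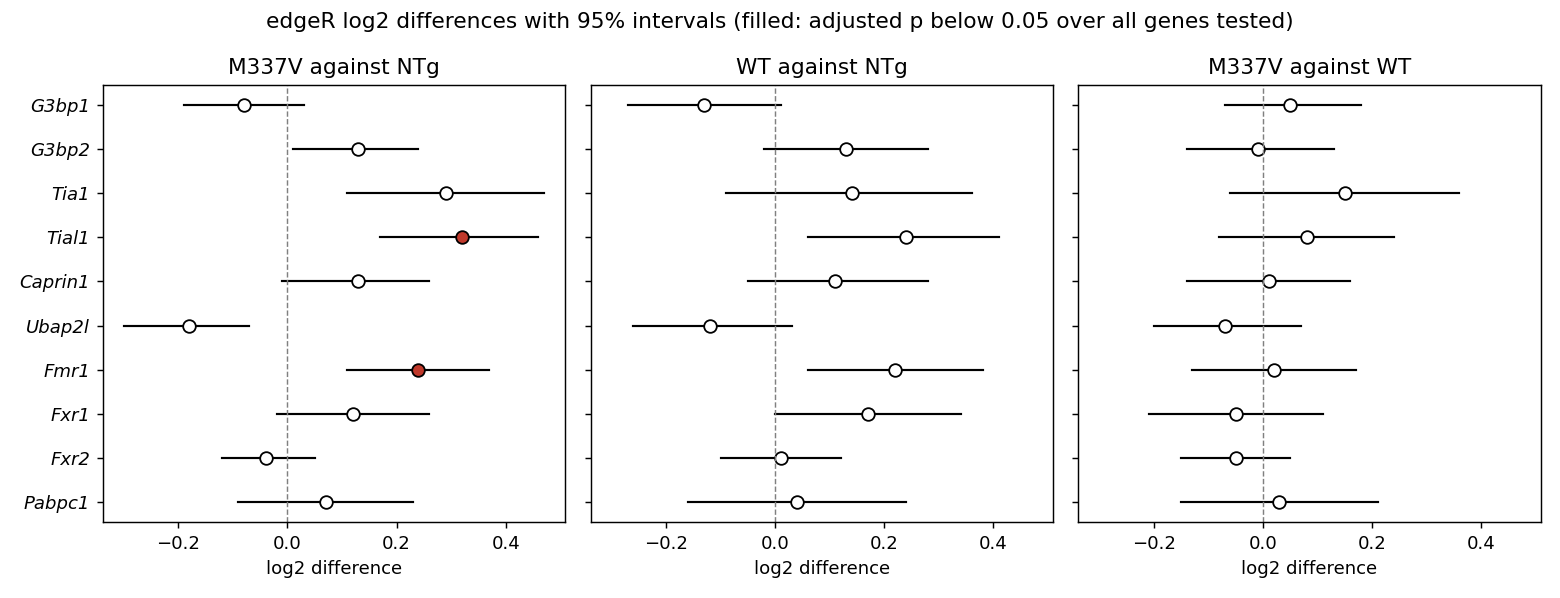
Log2 difference of each stress granule core gene in the 3 comparisons, with points for edgeR's estimate and bars for its 95% interval. Tial1 (0.32) and Fmr1 (0.24) in M337V against NTg are the estimates past the threshold, and the intervals of all 10 genes hold 0 in M337V against WT.

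In WT cord, with the normal human gene, Tial1 and Fmr1 had the largest positive log2 differences from NTg among the members, and neither passed the test. The edgeR test called 0 of 10 members between WT and NTg, against 5.64% of all genes (3.59% higher and 2.05% lower). At an unadjusted p below 0.05 there were 2 members, against 25.3% of all genes. DESeq2 called 2 members and limma-voom 0. Tial1 averaged 154.9 ± 5.25 CPM in WT and 131.5 ± 7.24 CPM in NTg (SD, n = 2 and 3), a log2 difference of 0.24 ± 0.08 (SE, 95% interval 0.06 to 0.41; edgeR adjusted p = 0.0974, DESeq2 adjusted p = 0.041). Fmr1 averaged 95.1 ± 1.63 CPM in WT and 81.6 ± 6.54 CPM in NTg (SD, n = 2 and 3), a log2 difference of 0.22 ± 0.07 (SE, 95% interval 0.06 to 0.38; edgeR adjusted p = 0.0925, DESeq2 adjusted p = 0.0435). The remaining log2 differences of WT against NTg ran from -0.13 ± 0.06 for G3bp1 to 0.17 ± 0.08 for Fxr1 (SE; edgeR adjusted p = 0.229 and 0.208). Without the library labelled NTg 4, Tial1 was at 0.29 and Fmr1 at 0.28 (edgeR adjusted p = 0.106 and 0.0748), and 0 of 10 members and 283 genes in all, in place of 857, were called.

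The groups did not overlap for 8 of the 10 members between WT and NTg, 6 of them higher in WT (G3bp2, Tia1, Tial1, Caprin1, Fmr1 and Fxr1) and 2 lower (G3bp1 and Ubap2l), against 41.7% of all genes (19.6% higher and 22.1% lower). Such a split was frequent over all genes in this comparison of 2 libraries with 3, and the cause of that share was not tested. The median log2 difference of the members was 0.12, against -0.02 over all tested genes, and 8 of 10 were positive.

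Both M337V and WT carry the human gene, and by label they differ in the mutation. Between them edgeR called 0 of 10 members and 0 of 15191 genes (0%). At an unadjusted p below 0.05 there were 0 members and 6.66% of all genes. DESeq2 called 0 members and 30 genes in all, and limma-voom called 0 members. The log2 differences of the members ran from -0.07 ± 0.06 for Ubap2l (SE, 95% interval -0.20 to 0.07) to 0.15 ± 0.09 for Tia1 (SE, 95% interval -0.06 to 0.36), with edgeR adjusted p of 0.798 or more for each. For Tial1 the difference was 0.08 (95% interval -0.08 to 0.24), for Fmr1 0.02 (-0.13 to 0.17) and for G3bp1 0.05 (-0.07 to 0.18). These intervals bound the differences between M337V and WT and do not show that the groups were alike. M337V 1, 2 and 3 also stand apart from the WT libraries by library name. Without them the log2 difference from WT was -0.04 for Tia1 and -0.02 for Tial1. Without M337V 7 and 9 it was 0.26 for Tia1 and 0.14 for Tial1. The part of the library numbers in this comparison was not tested. Fxr2 was the member whose groups did not overlap, with 134.3 to 138.8 CPM in M337V and 141.4 to 141.8 CPM in WT (log2 -0.05 ± 0.05, SE), against 9.5% of all genes without overlap (4.85% higher and 4.65% lower).

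Related genes were also compared within each library, since the log2 ratio of 2 genes does not depend on how libraries are scaled. It can still carry the trend with GC content described below. Fxr2 and Fmr1 have 55.5% and 38.6% GC, and G3bp2 and G3bp1 44.4% and 49.5%. The part of GC content in the ratios was not tested. G3bp2 exceeded G3bp1 by 2.48 ± 0.04 on the log2 scale of counts in M337V (SD, n = 5), by 2.54 ± 0.08 in WT (SD, n = 2) and by 2.28 ± 0.10 in NTg (SD, n = 3). The difference between M337V and NTg, 0.20, reached the smallest p that an exact two-sided permutation test can give here, 0.0179, and was 0.134 adjusted over 15 such tests. The ratio of Fxr2 to Fmr1 was 0.51 ± 0.07 in M337V and 0.79 ± 0.16 in NTg (log2, SD; exact permutation p = 0.0179, adjusted 0.134). That of Fxr2 to Fxr1 was 0.17 ± 0.08 in M337V and 0.32 ± 0.04 in NTg (log2, SD; exact permutation p = 0.0357, adjusted 0.179). The paralogues Tial1 and Tia1 had a log2 ratio of 0.18 ± 0.11 in M337V and 0.14 ± 0.07 in NTg (SD, exact permutation p = 0.696). In NTg 4, 5 and 6 the log2 ratio of G3bp2 to G3bp1 was 2.17, 2.31 and 2.37. That of Fxr2 to Fmr1 was 0.62, 0.79 and 0.95, and that of Fxr2 to Fxr1 0.33, 0.28 and 0.36. Apart from the 3 comparisons of M337V with NTg given first, the other 12 had an exact permutation p of 0.1 or more. None of the 15 passed after adjustment, and none could have, since the smallest adjusted p that these group sizes allow is 0.0536.

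Tial1 and Fmr1 also followed each other from animal to animal. Over the 10 libraries the Pearson correlation of their log2 CPM was 0.96, the highest among the 45 pairs of members, and that of Tia1 with Tial1 was 0.86 and of G3bp2 with Caprin1 0.84. Ubap2l and Tia1 had the lowest correlation, -0.81, and the median over the 45 pairs was 0.18 with 26 positive. The points of each correlation share libraries, groups and scaling, and the values are descriptions. Of all tested genes, those most like Tial1 were Aspa (0.98), an aspartoacylase of oligodendrocytes, Hnrnpu (0.98), a nuclear RNA-binding protein, and Hace1 (0.97), a ubiquitin ligase. Those most like Fmr1 were Rnf11 (0.98), Phf10 (0.98) and Cdc73 (0.97). Aspa is one of the oligodendrocyte markers described above.

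The differences from NTg went with base composition. The GC content of the annotated transcripts was 38.6% for Fmr1, 41.2% for Fxr1, 42.1% for Tial1, 42.2% for Tia1, 43.7% for Caprin1, 44.4% for G3bp2, 46.5% for Pabpc1, 47.0% for Ubap2l, 49.5% for G3bp1 and 55.5% for Fxr2. Log2 differences tended to be more positive in members poorer in GC, although Fxr1 (0.12) lay below 5 other members in M337V against NTg, with a Spearman correlation over the 10 genes of -0.77 in M337V against NTg and -0.92 in WT against NTg, and of -0.21 in M337V against WT. Over the 15149 tested genes with an annotated GC content it was -0.45, -0.44 and 0.15. Genes are not independent replicates, and both comparisons share the NTg libraries.

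Among the 1833 tested genes with a GC content below 43%, where Fmr1, Fxr1, Tial1 and Tia1 lie, 10.9% were called higher in M337V than in NTg and 12.5% higher in WT than in NTg. Their median log2 difference was 0.15 in M337V against NTg and 0.17 in WT against NTg. Of the 7846 genes at or above 50% GC, 0.459% and 0.637% were called higher. The smooth trends of counts over GC content and over the length of all annotated exons of a gene were also taken out of each library. Neither Tial1 (0.19) nor Fmr1 (0.05) then passed the threshold between M337V and NTg. Tia1 was at 0.19 (edgeR adjusted p = 0.245) and Ubap2l at -0.18 (edgeR adjusted p = 0.0657), and the small differences of Fxr1 (-0.03) and Fxr2 (0.05) changed sign. In WT against NTg, Fmr1 was at -0.01 and Tial1 at 0.08 after this removal. Whether base composition plays a part in the measured differences beyond this removal was not tested.

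**Figure D3:**
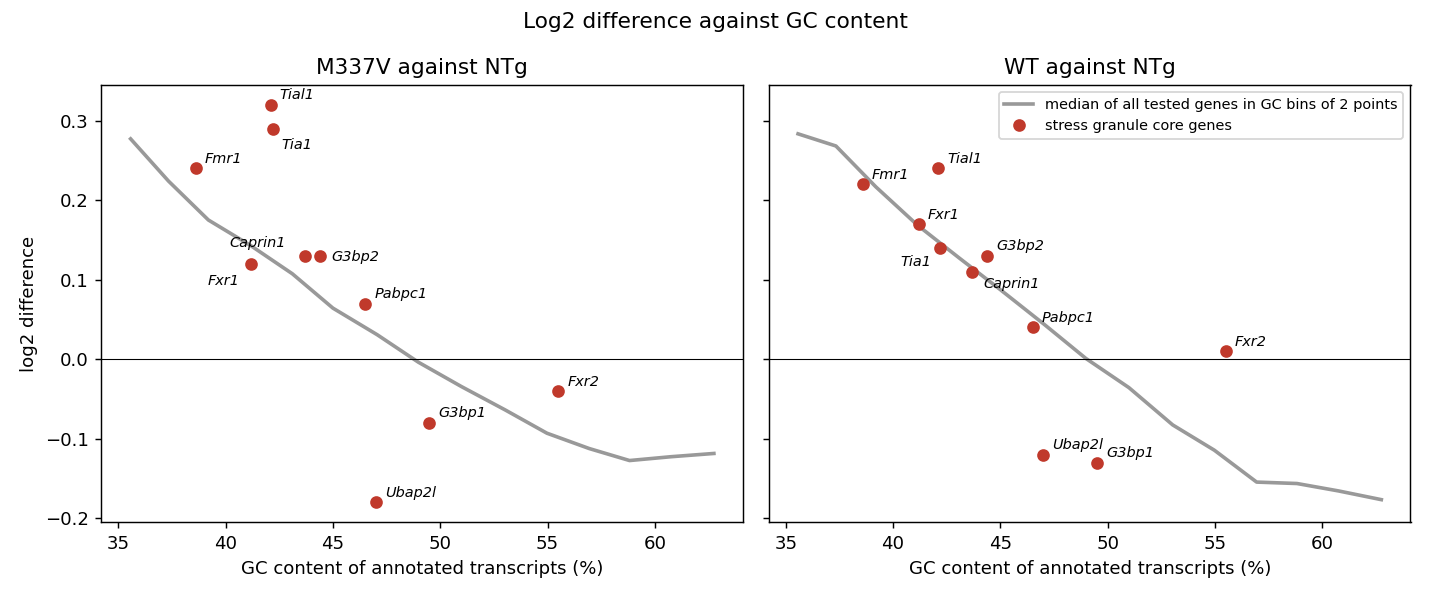
Log2 difference from NTg (vertical axis) against the GC content of a gene's annotated transcripts in percent (horizontal axis), for M337V on the left and WT on the right; red points are the stress granule core genes and the grey line joins the median of all tested genes in GC bins 2 percentage points wide. Fmr1 lies close to the line in both panels, Tial1 lies above it in both, and Ubap2l (-0.18 in M337V and -0.12 in WT) lies below it.

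The wider pathway was read from lists of genes chosen by function. The 101 distinct genes of the 7 lists besides the members were all tested, and edgeR called 0 of them in M337V against NTg, 2 higher and 0 lower in WT against NTg, and 0 in M337V against WT. At an unadjusted p below 0.05 there were 27, 25 and 7 of these 101 genes in the 3 comparisons, with DESeq2 calling 15, 13 and 0 and limma-voom 9, 1 and 0. Over all 15191 genes the shares at an unadjusted p below 0.05 were 24.5%, 25.3% and 6.66%, and the shares called by edgeR 4.29%, 5.64% and 0%. The median log2 differences of the 101 genes were 0.01, 0.00 and -0.02.

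Both genes called in WT are partners of the granule core. Nufip2, an RNA-binding partner of FMRP, stood at 92.03 and 92.85 CPM in WT 8 and 10 and at 71.45, 73.65 and 72.78 CPM in NTg 4, 5 and 6 (log2 0.35 ± 0.07, SE; edgeR adjusted p = 0.0192). M337V was intermediate, at 74.54, 77.96, 81.46, 87.71 and 80.68 CPM (log2 0.15 ± 0.05 against NTg, SE; edgeR adjusted p = 0.122), below both WT libraries (log2 -0.20 ± 0.06, SE; edgeR adjusted p = 0.625). Larp4, which binds poly(A) and its binding protein, stood at 88.58 and 101.8 CPM in WT and at 71.64, 74.83 and 70.59 CPM in NTg (log2 0.40 ± 0.08, SE; edgeR adjusted p = 0.0238), and in M337V its log2 difference from NTg was 0.23 ± 0.07 (SE; edgeR adjusted p = 0.0693). Of these calls in WT, that of Nufip2 ended without NTg 6 (log2 0.35, edgeR adjusted p = 0.0700), WT 8 (0.35, 0.0564) or WT 10 (0.34, 0.0704), and that of Larp4 without the library labelled NTg 4 (0.40, 0.0589), NTg 6 (0.38, 0.0821) or WT 10 (0.29, 0.136). Without NTg 4 Nufip2 was at 0.34 (edgeR adjusted p = 0.0497). Larp4 was also not called with limma-voom (adjusted p = 0.0549) or by edgeR on the compared groups alone (adjusted p = 0.0534). After removal of the trends over GC content and length both stood at 0.21, and neither passed (edgeR adjusted p = 0.111 for Nufip2 and 0.141 for Larp4).

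The lists gave 0 calls of 19 for processing bodies, the sites of messenger RNA decay, 0 of 15 for eIF2alpha phosphorylation, 0 of 14 for cap-binding initiation factors and 0 of 8 for ALS-linked RNA-binding proteins in each of the 3 comparisons. Of 32 other stress granule proteins 0, 2 and 0 were called in the 3 comparisons, of 10 poly(A)-binding proteins and partners 0, 1 and 0, and of 8 FMRP partners 0, 1 and 0, with Nufip2 and Larp4 each on 2 lists. The smallest p between M337V and NTg belonged to the translational repressor Pum2 among the other stress granule proteins (log2 0.18 ± 0.05, SE; edgeR adjusted p = 0.05, above the threshold before rounding). Eif2s1, which encodes eIF2alpha itself, stood at 0.29 ± 0.08 (log2, SE; edgeR adjusted p = 0.052), Matr3, a nuclear RNA-binding protein gene, at 0.18 ± 0.06 (0.091), and the decapping scaffold gene Edc4 at -0.29 ± 0.10 (0.101). Eif4g2, an initiation factor gene, was at 0.14 ± 0.05 (0.124).

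**Figure D4:**
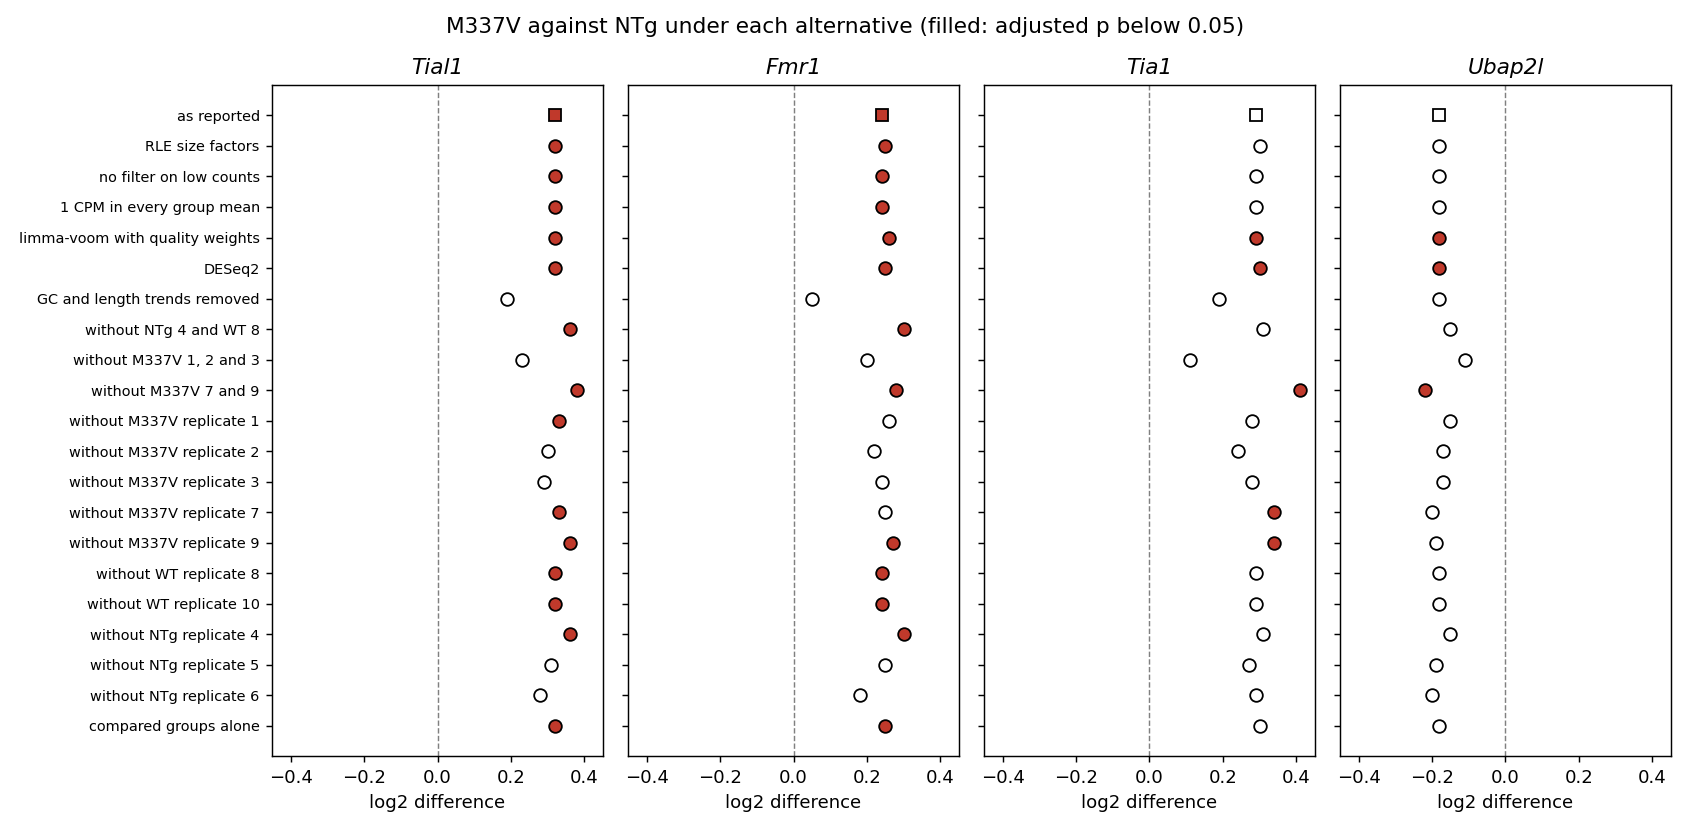
Log2 difference of Tial1, Fmr1, Tia1 and Ubap2l between M337V and NTg under the reported analysis and each of its 20 alternatives; each symbol is 1 analysis, with filled symbols past the threshold of 0.05 on the adjusted p. Tial1 ran from 0.19 to 0.38 and passed in 14 of 20 alternatives, and Fmr1 ran from 0.05 to 0.30 and passed in 12 of 20.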

How the data were processed

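Stranded TruSeq libraries of polyA RNA from lumbar spinal cord, with RNA integrity numbers above 8, were sequenced as paired reads, per the labels' protocols. The authors deposited raw counts, which are whole numbers with no scaling. Per the submitters' processing notes, the aligner STAR 2.4.2a and the counter featureCounts (Subread 1.4.6) were among the tools, with FastQC 0.11.2 and Trimmomatic 0.32. Which build and annotation they used, and whether counting used strand, is not given in the sources used here. Gene names, coordinates, transcript lengths, GC content and 3′ UTR sequence come from GENCODE vM21 (GRCm38), which named 21774 of the 22024 identifiers. All 10 members were matched by symbol to 1 identifier each.

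Groups follow the genotype labels, and the number in each title is the animal number. Counts were analysed with edgeR 4.0.16 in R 4.3.3. The filter filterByExpr (minimum count 10, minimum total 15) removed 6833 genes, TMM scaling was applied, and the quasi-likelihood test ran on a mean per group over all 10 libraries. Levels are TMM-scaled CPM, and correlations used log2 CPM with a prior count of 2. Paralogue ratios were tested by exact two-sided permutation over libraries. Intervals are for the fitted difference. The main edgeR fit, and none of the alternatives, was checked on simulated counts with 200 genes changed 1.5-fold or 2-fold. It recovered 67%, 53% and 52% of the 1.5-fold changes in M337V against NTg, WT against NTg and M337V against WT. Of 161, 133 and 139 calls, 13, 6 and 9 were false. Changes as small as those of the members were not simulated. No pair of libraries agreed within sampling noise (lowest chi-square per degree of freedom 4.87).

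The alternatives were size factors by RLE, all genes without the filter, a minimum group mean of 1 CPM, limma-voom with quality weights (limma 3.58.1), DESeq2 1.42.0, offsets that remove each library's loess trend (span 0.5) over GC content and length, a fit of the compared groups alone, and leaving out libraries. The members, the gene lists and these alternatives were chosen with earlier results of these data known. Genes named are all 10 members, every called gene of a pathway list (up to 4 per comparison) or else the gene with the smallest p, of which those of M337V against NTg are described, the nearest genes by correlation, Tardbp and TARDBP, and paralogue loci by symbol.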

Additional observations from a re-analysis of the deposited data

How the results depend on the processing

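Between M337V and NTg, where edgeR called 651 genes and 2 members, limma-voom called 1315 genes and 4 members, DESeq2 1499 and 4, taking out the trends over GC content and length 177 and 0, leaving out M337V 1, 2 and 3 together 3 and 0, and leaving out M337V 7 and 9 1146 and 4. The compared groups alone gave 1057 genes, and leaving out 1 library gave 2 to 1016 genes and 0 to 3 members. Between WT and NTg, where edgeR called 857 genes and 0 members, limma-voom called 215 genes, DESeq2 1720 genes and 2 members, trend removal 428 genes, leaving out NTg 4 and WT 8 142, the compared groups alone 258, and leaving out 1 library 44 to 1086 genes and 0 members. Between M337V and WT, where edgeR called 0 genes, omitting the filter gave 1, DESeq2 30, leaving out NTg 4 and WT 8 4, leaving out M337V 7 and 9 4, and leaving out 1 library 0 to 6, with 0 members under any of the 20 alternatives. The causes were not tested.

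For the paralogue ratios the group sizes allow no adjusted p below 0.0536, so that 0 passed by construction, here and under each alternative. Tial1 kept its direction against NTg in M337V and in WT under all 20 alternatives, and Fmr1 did in M337V under all 20 and in WT under 19. Differences of members that were not called changed sign in places, as Fxr1 and Fxr2 did in M337V against NTg under trend removal. No paired analysis was possible because the groups share no animal number. The calls of Tial1 and Fmr1 in M337V against NTg depend on single libraries.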
